A study of Homo sapiens with 15 samples.

Results

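Tight junctions, adherens junctions and the proteins that set apical and basal sides were followed in HCC95 cells, a line established from a human lung squamous cell carcinoma (LUSC). The group held 39 of the 61544 genes in the count table, chosen by name from what the proteins do: 8 claudins, 4 MARVEL proteins or junctional adhesion molecules, 2 tricellular angulins, 4 proteins of the tight junction plaque, 5 cadherins or catenins, 3 nectins, EPCAM, 6 polarity proteins, 4 membrane proteases or their inhibitors and 2 proteins of apical trafficking. The choice was made with earlier results of these data known, so that shares set beside all genes are descriptions. Of the 39 genes, 37 passed the filter on low counts, and the claudin gene CLDN9 and the polarity gene PARD6A, with at most 6 and 18 counts in any library, were not tested. RNA-seq had been performed on cells transfected with a small interfering RNA (siRNA) against KLF5 (siKLF5b), TP63 (siTP63b), SOX2 (siSOX2b) or GRHL2 (siGRHL2a), or with a negative control siRNA (siNC1), with 3 libraries in each of 5 groups. All 5 groups shared the one cell line and received a single siRNA each, so that an effect of a target and an off-target effect of its siRNA cannot be told apart. The labels give no genotype or time for the RNA libraries, and they do not say whether replicates were separate cultures, so that the p-values may measure technical spread.

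Epithelial cells are sealed to each other by tight junctions, in which claudins and occludin form strands that are tied to actin by plaque proteins such as ZO-1 and cingulin. Below them lie adherens junctions, in which E-cadherin binds catenins, and polarity complexes keep both belts near the apical surface. Grainyhead factors such as GRHL2 are known activators of many of these genes, and p63, SOX2 and KLF5 are master transcription factors of squamous cells.

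The libraries fell into 2 sets, of siNC1 with siKLF5b (6 libraries) and of siTP63b, siSOX2b and siGRHL2a (9 libraries), which differed in the naming of their count columns. They also differed in the share of even-numbered counts (49.7% to 50.7% against 66.1% to 69.0%) and lay apart on the first principal component (51.0% of the variance). Library totals were 15655495 to 24845273 counts in the first set and 22255856 to 34229063 in the second. The second set holds no negative control, so that for its 3 siRNAs a difference from siNC1 and a difference between sets cannot be told apart. Contrasts were therefore made within a set: siKLF5b minus siNC1, and the other 3 knockdowns against each other. A contrast of 2 knockdowns does not tell which of them moved. Levels are given as CPM, counts scaled to a common library size with TMM factors, and genes were called at an adjusted p under 0.05 with an absolute log2 fold change (log2FC) over 0.75 in edgeR.

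Each siRNA's own target was lower in its group, though by unequal amounts. KLF5 was at 71.8, 71.8 and 73.8 CPM in siKLF5b against 107 to 123 CPM in siNC1 (log2FC -0.64, SE 0.058, adjusted p = 5.29e-10). TP63 fell in siTP63b against siSOX2b (log2FC -0.93, SE 0.051, adjusted p = 3.22e-15), and SOX2 had a log2FC of 1.73 in the same contrast, being lowest in siSOX2b. GRHL2 was at 90.8, 91.9 and 91.1 CPM in siGRHL2a, at 105, 99.6 and 96.0 CPM in siSOX2b, and at 120, 116 and 116 CPM in siTP63b. Thus GRHL2 was lower in siGRHL2a than in siTP63b by a log2FC of -0.36 (SE 0.046, adjusted p = 3.04e-07), whereas against siSOX2b the log2FC was only -0.14 (SE 0.047, adjusted p = 0.0313), a call that was lost under several alternatives. The 3 siNC1 libraries stood at 134, 135 and 136 CPM and the siKLF5b libraries at 136, 143 and 142 CPM (log2FC 0.06, adjusted p = 0.414). Squamous markers were present throughout: all 10 of 10 were above 3 counts in at least 1 library of every group, and their summed level was 10500 to 12000 CPM in siNC1, 6480 to 7500 in siKLF5b, 6960 to 8080 in siTP63b, 9970 to 11000 in siSOX2b and 12500 to 12900 in siGRHL2a. In bulk RNA, fewer cells of a type and less RNA per cell cannot be told apart.

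After knockdown of KLF5, a minority of the junction genes were called, each of them lower. Of the 37 tested genes, 4 were called lower in siKLF5b than in siNC1, namely the claudin CLDN4, the nectin NECTIN4, the membrane protease PRSS8 and the myosin MYO5B, against 1.37% of all 25108 genes tested. None of the 37 was called higher (0, against 1.89% of all genes tested), and at the adjusted p alone 1 was higher. By the adjusted p alone, 16 genes (43.2%) were lower against 12.9% of all genes, and 1 gene (2.7%), the adhesion molecule F11R, was higher against 10.3%, while 20 passed in neither direction. The median log2FC over the 37 genes was -0.18, beside -0.0097 over all genes tested. The median level of the 37 genes was 22.9 CPM against 8.22 CPM for all genes tested, and the part of this level in the shares was not tested.

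More of the genes were called in siGRHL2a against siTP63b than against siSOX2b, though the difference between these contrasts was not tested. Against siTP63b, 7 genes were called lower (CLDN4, CLDN8, ILDR1, TJP3, CGN, NECTIN4 and MYO5B; background 2.18%) and 0 higher (background 3.21%, with 6 higher at the adjusted p alone). By the adjusted p alone, 21 genes (56.8%) were lower against 13.6% of all genes and 6 (16.2%) were higher against 13.4%, and the median log2FC was -0.28 beside 0.009 over all genes tested. Against siSOX2b, only CGN was called lower (background 1.05%) and only CGNL1 higher (background 2.27%). The count was 2 lower without siSOX2b replicate 3 or without siGRHL2a replicate 1 or 3, and 0 higher without siSOX2b replicate 2. There, 7 genes (18.9%) were lower by the adjusted p alone against 11.8% of all genes and 6 (16.2%) were higher against 12.7%, with a median log2FC of -0.03 beside 0.018.

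In the remaining contrast, siTP63b minus siSOX2b, TJP3, CGN and MYO5B were called higher (3 of 37 genes, background 3.88%) and 0 genes were called lower (background 2.82%, with 4 lower at the adjusted p alone). By the adjusted p alone, 16 genes (43.2%) were higher against 16.4% of all genes and 4 (F11R, CDH3, CTNNB1 and SPINT2) were lower against 15.4%, while 17 passed in neither direction, and the median log2FC was 0.24 beside 0.00059. Among the 3 knockdowns of the second set, siTP63b had the highest mean for 26 of the 37 genes (70.3%, beside 34.7% of all genes tested), and siGRHL2a had the lowest mean for 19 (51.4%, beside 29.2%). These 3 contrasts share libraries with each other. The contrast of siKLF5b with siNC1 and that of siGRHL2a with siTP63b share none, and CLDN4, NECTIN4 and MYO5B were called lower in both, 3 genes that make up 75.0% of the 4 and 42.9% of the 7. Over all genes tested, 26 were lower in both, which was 7.58% of 343 and 4.75% of 547.

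**Figure D1:**
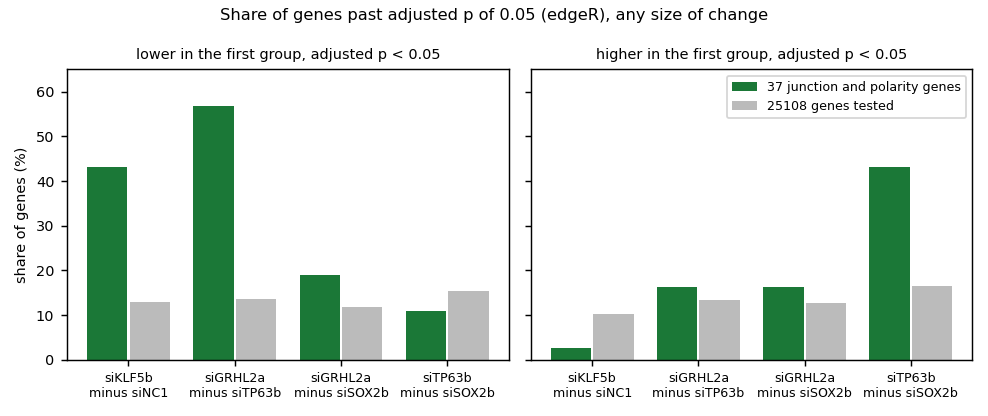
Share of genes (%, vertical axis) with an adjusted p below 0.05 in each contrast, lower on the left and higher on the right, for the 37 tested junction and polarity genes (green) and all 25108 tested genes (grey). The green bars are tallest for siGRHL2a minus siTP63b on the lower side (56.8%) and for siTP63b minus siSOX2b on the higher side (43.2%), and they reach 18.9% and 16.2% for siGRHL2a minus siSOX2b.

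**Figure D2:**
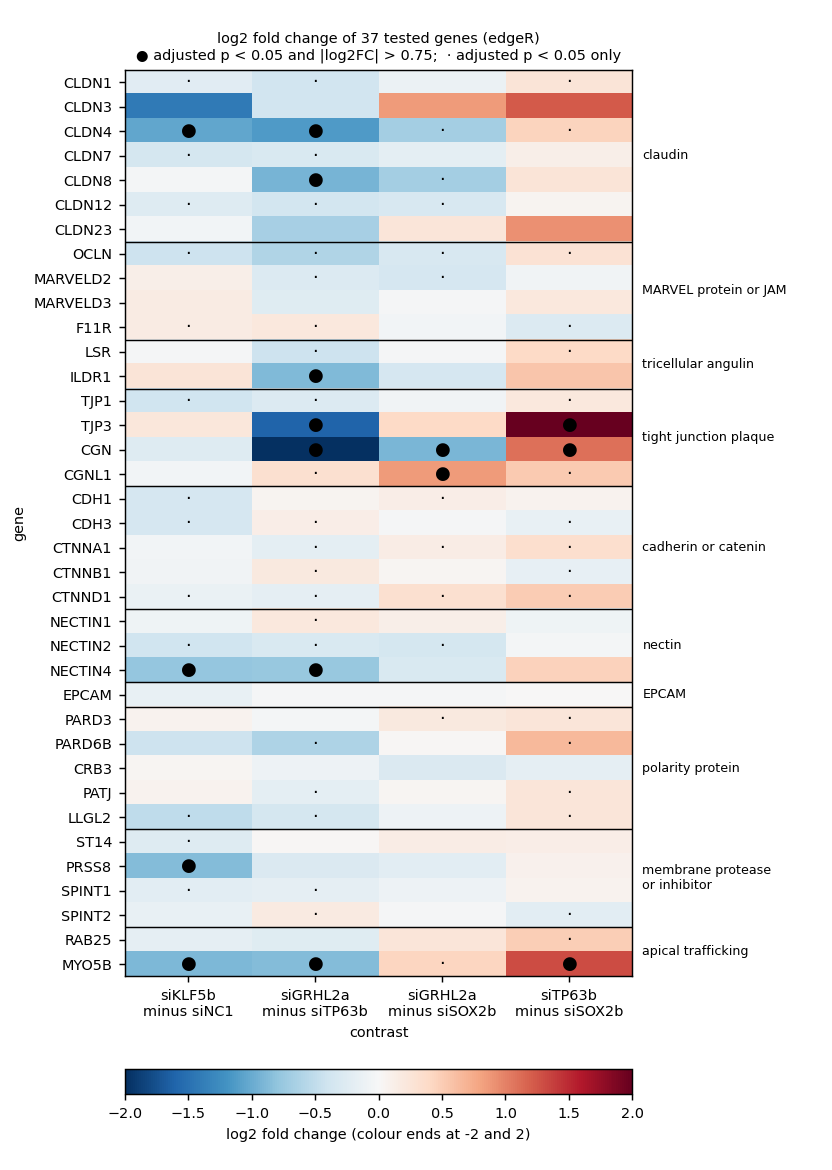
Log2FC (colour, blue lower and red higher in the first group) of the 37 tested genes in rows, ordered by role, in the 4 contrasts in columns; large dots mark called genes and small dots genes past the adjusted p alone. Blue with dots fills much of the first and second columns, and CGN, TJP3 and MYO5B turn from blue to red between the second and the fourth.

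The stretches before the start of transcription are shown for CGN, the gene called lower in siGRHL2a against both other knockdowns, and for the 3 genes called lower both in siKLF5b and in siGRHL2a against siTP63b. They are the 250 bases before the RefSeq start (GRCh38.p14), written 5′ to 3′ along the gene. Capitals mark matches, on either strand, to the core of a grainyhead site (AACNNGTT), to the E-box bound by ZEB and SNAI repressors (CACCTG) and to the GC box of KLF and SP factors (CCCGCCC), of which none contains another.
CGN (chr1:151511137-151511386, plus strand): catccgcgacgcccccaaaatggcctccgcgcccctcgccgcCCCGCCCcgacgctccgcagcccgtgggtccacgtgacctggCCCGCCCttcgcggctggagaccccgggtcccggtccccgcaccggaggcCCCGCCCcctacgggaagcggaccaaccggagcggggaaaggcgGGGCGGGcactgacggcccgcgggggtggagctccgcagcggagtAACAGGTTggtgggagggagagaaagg
CLDN4 (chr7:73830746-73830995, plus strand): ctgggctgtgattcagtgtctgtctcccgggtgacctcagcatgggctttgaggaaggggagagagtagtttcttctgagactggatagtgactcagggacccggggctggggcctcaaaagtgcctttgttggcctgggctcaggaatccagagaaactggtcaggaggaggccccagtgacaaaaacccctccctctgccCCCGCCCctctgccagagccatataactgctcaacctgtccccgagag
NECTIN4 (chr1:161089559-161089808, minus strand): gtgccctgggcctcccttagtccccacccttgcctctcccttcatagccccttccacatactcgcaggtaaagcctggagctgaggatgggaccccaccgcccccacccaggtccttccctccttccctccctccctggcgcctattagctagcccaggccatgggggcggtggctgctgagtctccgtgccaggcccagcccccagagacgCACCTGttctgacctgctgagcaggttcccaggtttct
MYO5B (chr18:50195148-50195397, minus strand): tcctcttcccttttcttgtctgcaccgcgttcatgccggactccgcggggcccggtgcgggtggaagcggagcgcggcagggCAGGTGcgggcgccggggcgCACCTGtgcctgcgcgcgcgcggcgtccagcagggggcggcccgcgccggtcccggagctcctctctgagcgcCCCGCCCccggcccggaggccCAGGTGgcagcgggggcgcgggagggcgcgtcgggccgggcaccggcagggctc

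The CGN stretch held 1 relaxed grainyhead match, AACAGGTT, beginning 27 bases before the start, and 4 GC boxes, while CLDN4 held 1 GC box, NECTIN4 held 1 E-box, and MYO5B held 3 E-boxes and 1 GC box. RefSeq stretches were matched for 23 of the 39 genes, 33 stretches in all, since several genes have more than one start. The full grainyhead palindrome AACCGGTT was found in 0 of the 33 stretches and in 0.117% of the 35116 in the table, and AACNNGTT in 2 (CGN and CTNNA1, 6.06%) and in 3.0%. The E-box was present in 12 of the 33 (36.4%) and in 17.5% of all stretches, the GC box in 21 (63.6%) and in 31.5%, and the CCACACCC box of KLF factors in 2 (CLDN7 and OCLN, 6.06%) and in 2.97%. Stretches of 1 gene can overlap. Such a match is a run of letters and not a bound site, and binding further away was not examined.

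Among claudins, the strand proteins that set which ions pass between cells, CLDN4 and CLDN8 were the ones called. CLDN4 (ENSG00000189143.10, chr7:73799542-73832690), a barrier claudin of many epithelia, stood at 19.5, 16.9 and 14.1 CPM in siNC1 and at 8.10, 7.77 and 8.78 CPM in siKLF5b. It stood at 27.3, 25.5 and 27.7 CPM in siTP63b, at 19.9, 19.98 and 18.8 CPM in siSOX2b and at 12.2, 10.3 and 14.1 CPM in siGRHL2a. The groups of each contrast did not overlap, and the 3 knockdowns of the second set were ordered siTP63b, siSOX2b, siGRHL2a. The log2FC was -1.04 (SE 0.12, adjusted p = 5.44e-08) in siKLF5b, which was 2.05-fold lower, and -1.14 (SE 0.1, adjusted p = 3.29e-10) in siGRHL2a against siTP63b. Against siSOX2b the log2FC of -0.69 (SE 0.1, adjusted p = 8.27e-06) stayed inside the fold threshold, and without siGRHL2a replicate 3 it was -0.82 and past it. Only 14.2% of the span counted for CLDN4 is exonic, and no other gene overlaps it.

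CLDN8 (ENSG00000156284.6, chr21:30214006-30216097), a claudin gene with a single exon, gave no call in siKLF5b. Its level was 31.3, 34.8 and 29.1 CPM in siNC1 and 30.5, 32.5 and 29.4 CPM in siKLF5b, groups that overlapped (log2FC -0.04, SE 0.099, adjusted p = 0.837). It was 15.6, 18.5 and 14.1 CPM in siTP63b, 13.2, 15.2 and 11.7 CPM in siSOX2b and 9.46, 7.75 and 7.95 CPM in siGRHL2a. Every siGRHL2a library was thus below every library of both other knockdowns, with a log2FC of -0.93 (SE 0.11, adjusted p = 4.32e-08) against siTP63b and of -0.68 (SE 0.11, adjusted p = 2.04e-05) against siSOX2b. The latter passed the fold threshold without siSOX2b replicate 3 (-0.77) or siGRHL2a replicate 1 (-0.78).

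CLDN1 (ENSG00000163347.6, chr3:190305707-190322446), the claudin needed for the skin barrier, moved little by comparison. It was at 340, 322 and 314 CPM in siNC1 and at 284, 274 and 281 CPM in siKLF5b (log2FC -0.22, SE 0.053, adjusted p = 0.00252). The siTP63b libraries held 276, 264 and 281 CPM, the siSOX2b libraries 232, 233 and 220 CPM and the siGRHL2a libraries 234, 196 and 202 CPM. The last 2 groups overlapped (log2FC -0.12, adjusted p = 0.117), whereas siGRHL2a lay below siTP63b (log2FC -0.38, SE 0.053, adjusted p = 1.7e-06). CLDN12 and CLDN7 were also lower by the adjusted p alone in siKLF5b (log2FC -0.26 and -0.35) and in siGRHL2a against siTP63b (-0.37 and -0.31). Reads of CLDN12 and CLDN7 may be shared with overlapping genes on the same strand. CLDN3 and CLDN23 had group means below 1 CPM in every group, and none of their contrasts passed the test.

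Occludin (OCLN, ENSG00000197822.12, chr5:69492292-69558104), the first transmembrane protein found in tight junctions, passed the adjusted p but not the fold threshold in every contrast. It was at 19.8, 16.8 and 19.3 CPM in siNC1 and at 14.0, 13.5 and 14.7 CPM in siKLF5b, without overlap (log2FC -0.41, SE 0.1, adjusted p = 0.00316). The level was 20.1, 20.2 and 17.6 CPM in siTP63b, 15.4, 17.6 and 14.3 CPM in siSOX2b and 12.1, 11.7 and 14.4 CPM in siGRHL2a. The log2FC of siGRHL2a was -0.60 (SE 0.097, adjusted p = 1.38e-05) against siTP63b and -0.31 (SE 0.099, adjusted p = 0.0184) against siSOX2b, a pair of groups that overlapped and whose adjusted p ranged from 0.00408 to 0.128 over the alternatives. In siTP63b against siSOX2b OCLN had a log2FC of 0.29 (adjusted p = 0.0209, and up to 0.114 over the alternatives). Tricellulin (MARVELD2), which seals the corners where 3 cells meet, was lower in siGRHL2a by -0.27 against siTP63b and by -0.33 against siSOX2b. F11R, the adhesion molecule JAM-A, went the other way, with a log2FC of 0.16 in siKLF5b and of 0.21 in siGRHL2a against siTP63b. Reads of F11R may be shared with an overlapping gene on the same strand, which held 50.1% as many counts.

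The angulins, which recruit tricellulin to those corners, were lower in siGRHL2a than in siTP63b, and neither passed the test in siKLF5b. ILDR1 (ENSG00000145103.15, chr3:121987323-122022247) was at 1.45, 1.42 and 1.65 CPM in siGRHL2a and at 2.15, 2.92 and 3.28 CPM in siTP63b (log2FC -0.88, SE 0.24, adjusted p = 0.00609). It was at 2.32, 2.09 and 1.15 CPM in siSOX2b, 1.37, 1.43 and 2.27 CPM in siNC1 and 2.38, 1.56 and 2.23 CPM in siKLF5b, and these groups overlapped in their contrasts. LSR had means of 106 CPM in siGRHL2a, 142 CPM in siTP63b and 108 CPM in siSOX2b, so that it was lower against siTP63b (log2FC -0.42, SE 0.063, adjusted p = 4.25e-06) and not separable from siSOX2b (-0.02, adjusted p = 0.844).

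The largest called log2FC of the 37 genes were those of plaque proteins. Cingulin (CGN, ENSG00000143375.15, chr1:151510510-151538692), which links tight junctions to actomyosin and restrains a RhoA activator, was at 1.97, 2.29 and 2.63 CPM in siGRHL2a. Its level was 8.22, 9.38 and 10.3 CPM in siTP63b and 4.22, 4.15 and 4.69 CPM in siSOX2b, so that the 3 groups were fully apart from each other. The log2FC was -2.01 (SE 0.15, adjusted p = 3.28e-12) for siGRHL2a against siTP63b, -0.92 (SE 0.16, adjusted p = 4.53e-05) against siSOX2b and 1.10 (SE 0.14, adjusted p = 2.13e-07) for siTP63b against siSOX2b. In the first set CGN was at 8.33, 6.09 and 6.17 CPM in siNC1 and 5.72, 5.47 and 6.11 CPM in siKLF5b, which overlapped (log2FC -0.26, adjusted p = 0.221).

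Paracingulin (CGNL1, ENSG00000128849.11, chr15:57375967-57550717), is a close relative of cingulin. It was at 10.6, 10.9 and 10.1 CPM in siGRHL2a, 6.98, 8.63 and 9.62 CPM in siTP63b and 6.82, 5.03 and 5.75 CPM in siSOX2b. Against siSOX2b it was called higher (log2FC 0.84, SE 0.13, adjusted p = 6.2e-06), and without replicate 2 of siSOX2b the log2FC was 0.73 and the call was lost. Against siTP63b the log2FC was 0.33 (SE 0.12, adjusted p = 0.0443) and short of the fold threshold, and the adjusted p ranged from 0.0159 to 0.275 over the alternatives, the highest without siTP63b replicate 1. Against siSOX2b CGN was thus called lower and CGNL1 higher. The siNC1 libraries held 4.57, 3.95 and 4.24 CPM of CGNL1 and the siKLF5b libraries 3.98, 4.19 and 4.07 CPM (log2FC -0.06, adjusted p = 0.833).

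ZO-3 and ZO-1 are scaffolds that hold claudins and occludin. ZO-3 (TJP3, ENSG00000105289.15, chr19:3708362-3750813) was scarce, with 4 to 44 counts in a library, and stood at 1.44, 1.43 and 1.35 CPM in siTP63b against 0.43, 0.12 and 0.53 CPM in siSOX2b and 0.29, 0.72 and 0.37 CPM in siGRHL2a. It was higher in siTP63b than in siSOX2b (log2FC 2.01, SE 0.41, adjusted p = 0.000258) and lower in siGRHL2a than in siTP63b (log2FC -1.60, SE 0.38, adjusted p = 0.00174). The siNC1 libraries were at 0.80, 0.49 and 0.71 CPM and the siKLF5b libraries at 0.91, 0.70 and 0.76 CPM, and they overlapped. APBA3 lies over TJP3 on the opposite strand with 703% as many counts, so that reads of TJP3 may be uncertain.

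ZO-1 (TJP1, ENSG00000104067.17, chr15:29699367-29968915) was at 331, 331 and 350 CPM in siNC1 and at 250, 254 and 261 CPM in siKLF5b (log2FC -0.40, SE 0.045, adjusted p = 3.25e-08). It was at 516, 538 and 527 CPM in siTP63b, 476, 454 and 440 CPM in siSOX2b and 444, 429 and 429 CPM in siGRHL2a. Every siTP63b library was above the others of its set (log2FC of siGRHL2a -0.28, SE 0.044, adjusted p = 8.88e-06), and siGRHL2a overlapped siSOX2b (-0.07, adjusted p = 0.233).

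**Figure D3:**
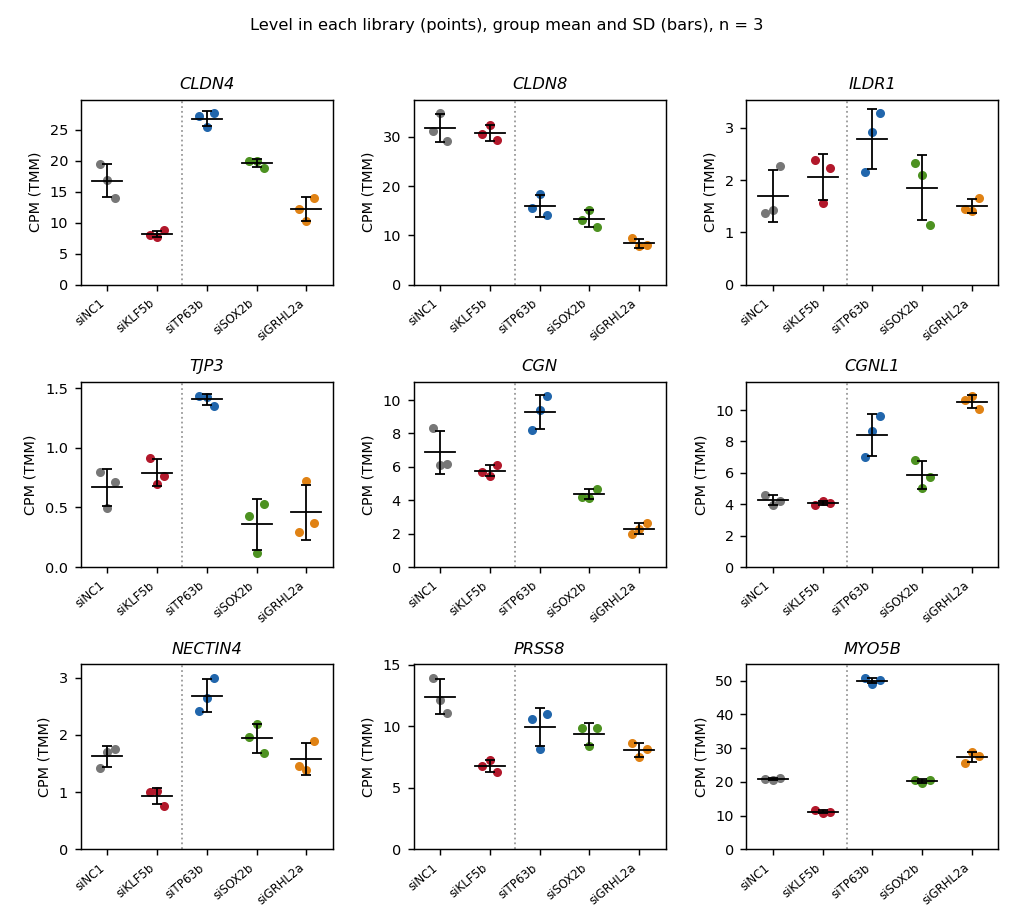
Level (CPM, vertical axis from 0) of the 9 genes called in at least 1 contrast, in the 3 libraries of each group (points) with mean and SD (bars); the dotted line parts the 2 sets of libraries, which are not to be compared across it. CLDN4, NECTIN4, PRSS8 and MYO5B are lower in siKLF5b than in siNC1, and CGN is lowest in siGRHL2a and highest in siTP63b.

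Of the 5 cadherins and catenins, 0 were called in any contrast at both thresholds, although each had an adjusted p below 0.05 in at least 1. Over all genes tested, only 1.05% to 3.88% were called per contrast and direction, so that 0 of 5 is near the background. E-cadherin (CDH1, ENSG00000039068.20, chr16:68737292-68835537) was at 202, 199 and 204 CPM in siNC1 and at 155, 166 and 160 CPM in siKLF5b (log2FC -0.33, SE 0.049, adjusted p = 5.48e-06). In the second set it was at 187, 191 and 188 CPM in siTP63b, 178, 190.0 and 172 CPM in siSOX2b and 195, 187 and 209 CPM in siGRHL2a, groups that overlapped in all 3 contrasts. Its log2FC in siGRHL2a was 0.06 (adjusted p = 0.376) against siTP63b and 0.13 (SE 0.048, adjusted p = 0.0493) against siSOX2b, a pass that was lost under most alternatives, with an adjusted p from 0.0219 to 0.374. CDH1, known as a grainyhead target, was thus not lower in siGRHL2a than in either. GRHL2 itself differed by a log2FC of only -0.36 and -0.14 in these contrasts, and both comparators are knockdowns. Whether GRHL2 acts on CDH1 here was therefore not tested. P-cadherin (CDH3), the cadherin of basal cells, was also lower in siKLF5b (log2FC -0.34, SE 0.047, adjusted p = 2.04e-06) and slightly higher in siGRHL2a than in siTP63b (0.13, adjusted p = 0.0372).

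The catenins, which couple cadherins to actin, changed by at most 0.50 on the log2 scale. Beta-catenin (CTNNB1, ENSG00000168036.18, chr3:41194741-41260096) was at 225, 226 and 229 CPM in siNC1 and 214, 220 and 212 CPM in siKLF5b (log2FC -0.07, adjusted p = 0.242). It was at 210, 205 and 208 CPM in siTP63b, 231, 229 and 239 CPM in siSOX2b and 240, 232 and 245 CPM in siGRHL2a. All siGRHL2a libraries were above siTP63b (log2FC 0.20, SE 0.043, adjusted p = 0.000479) and overlapped siSOX2b (0.04, adjusted p = 0.58). The catenin p120 (CTNND1), which holds cadherins at the membrane, had the largest difference of the catenins, a log2FC of 0.50 (SE 0.046, adjusted p = 2.93e-10) in siTP63b against siSOX2b. Its reads may be shared with an overlapping gene on the same strand.

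NECTIN4 (ENSG00000143217.9, chr1:161070998-161089558), a nectin that is also an antibody target in carcinoma, was at 1.42, 1.70 and 1.76 CPM in siNC1 and 1.01, 1.03 and 0.76 CPM in siKLF5b. Its log2FC of -0.78 (SE 0.26, adjusted p = 0.0278) rested on 12 to 42 counts in a library of these 2 groups. The call was lost when any of 5 of the 6 libraries was left out, with adjusted p from 0.0533 to 0.1 among those losses. It was at 2.42, 2.65 and 2.99 CPM in siTP63b, 1.96, 2.18 and 1.68 CPM in siSOX2b and 1.45, 1.39 and 1.90 CPM in siGRHL2a. The log2FC of -0.76 (SE 0.21, adjusted p = 0.00548) against siTP63b fell short of the fold threshold in 3 of the 6 fits with 1 library left out (siTP63b replicate 3, siGRHL2a replicate 1 or 2, which gave -0.69, -0.71 and -0.68). NECTIN2, by contrast, was lower by the adjusted p alone in siKLF5b (log2FC -0.39) and in siGRHL2a against both siTP63b (-0.31) and siSOX2b (-0.34).

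EPCAM (ENSG00000119888.11, chr2:47345158-47387601), an epithelial adhesion molecule that stabilises claudins, passed no test. It was at 425, 433 and 413 CPM in siNC1 and 364, 384 and 394 CPM in siKLF5b, groups that did not overlap but gave an adjusted p of 0.0567 (log2FC -0.15, SE 0.058). It was at 230, 238 and 189 CPM in siTP63b, 219, 221 and 213 CPM in siSOX2b and 214, 205 and 226 CPM in siGRHL2a. These 3 groups overlapped, with log2FC between -0.03 and 0.01. Whether the lower EPCAM level in the second set went with the siRNAs or with the set cannot be told apart.

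**Figure D4:**
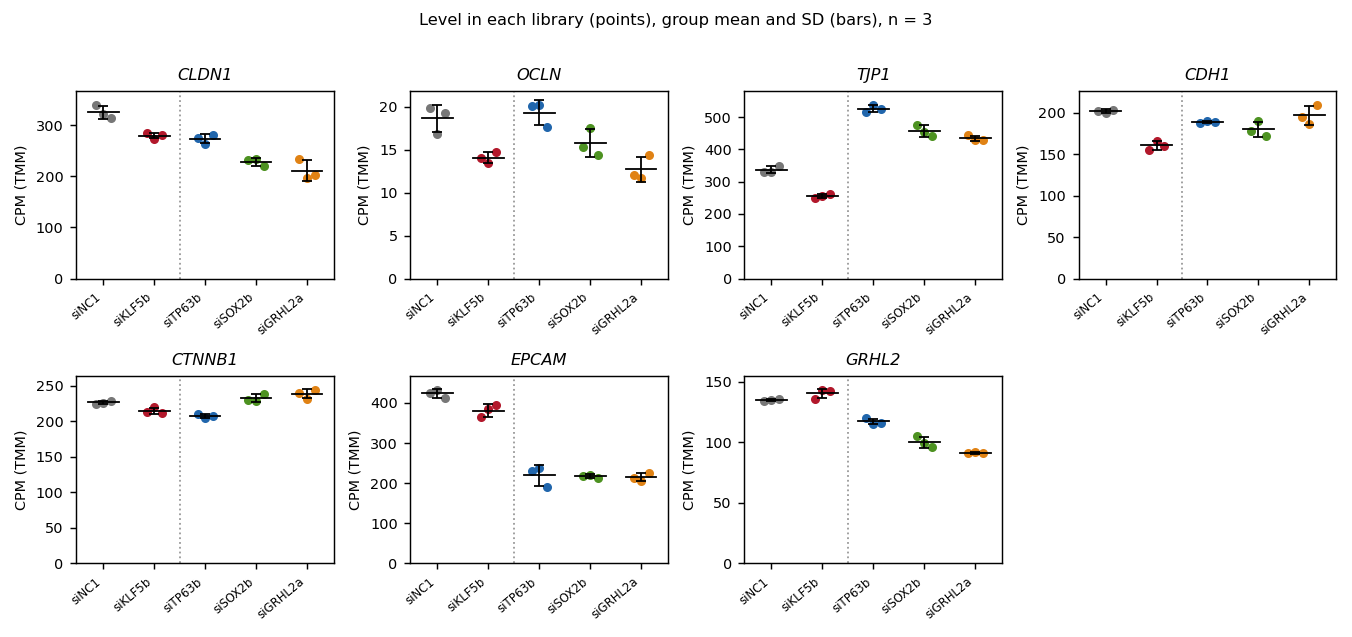
Level (CPM, vertical axis from 0) of CLDN1, OCLN, TJP1, CDH1, CTNNB1, EPCAM and GRHL2 in the 3 libraries of each group (points) with mean and SD (bars); the dotted line parts the 2 sets. CLDN1, OCLN, TJP1 and CDH1 are lower in siKLF5b than in siNC1, while CTNNB1 and CDH1 vary little among siTP63b, siSOX2b and siGRHL2a.

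Of the polarity proteins, which mark the apical domain or oppose it, 5 of 6 were tested and 0 were called in any contrast at both thresholds. That is near the 1.05% to 3.88% of all genes tested that were called per contrast and direction. The basolateral factor LLGL2 was lower by the adjusted p alone in siKLF5b, at a mean of 12.0 CPM against 17.1 CPM (log2FC -0.51, SE 0.096, adjusted p = 0.000149), and in siGRHL2a against siTP63b (-0.34, adjusted p = 0.00227). PARD6B, an adaptor of the apical PAR complex, was lower in siGRHL2a than in siTP63b (5.91 against 9.10 CPM, log2FC -0.62, SE 0.14, adjusted p = 0.000914) and higher in siTP63b than in siSOX2b (0.65, adjusted p = 0.000582). The scaffolds PARD3 and PATJ were higher in siTP63b than in siSOX2b by 0.24 each. CRB3, an apical determinant with means of 1.11 to 2.39 CPM, passed no test, and reads of SLC25A23 on the opposite strand outnumber its own.

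Among membrane proteases and their inhibitors, prostasin (PRSS8, ENSG00000052344.16, chr16:31131433-31135727), an epithelial protease of barrier formation, was called in siKLF5b. It was at 13.9, 12.2 and 11.1 CPM in siNC1 and at 6.77, 7.27 and 6.30 CPM in siKLF5b, without overlap (log2FC -0.86, SE 0.13, adjusted p = 4.91e-06). In the second set it was at 10.6, 8.16 and 10.97 CPM in siTP63b, 9.84, 8.37 and 9.91 CPM in siSOX2b and 8.65, 7.48 and 8.14 CPM in siGRHL2a, which overlapped in every contrast. Matriptase (ST14), the protease that works with prostasin, and SPINT1, the inhibitor of matriptase, were lower in siKLF5b by the adjusted p alone (log2FC -0.25 and -0.22). SPINT2, a related inhibitor, had a log2FC of -0.15 in siKLF5b (adjusted p = 0.0929). Its reads may be shared with an overlapping gene on the same strand, which held 87.1% as many counts.

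MYO5B (ENSG00000167306.20, chr18:49822789-50195147), a motor that carries recycling vesicles to the apical surface, was at 20.8, 20.6 and 21.2 CPM in siNC1 and at 11.7, 10.7 and 11.2 CPM in siKLF5b (log2FC -0.90, SE 0.08, adjusted p = 4.1e-10). It was at 50.7, 49.1 and 50.1 CPM in siTP63b, 20.7, 19.7 and 20.6 CPM in siSOX2b and 25.6, 28.7 and 27.5 CPM in siGRHL2a. The siTP63b libraries stood well above the others, which gave a log2FC of 1.30 (SE 0.069, adjusted p = 1.28e-15) against siSOX2b and of -0.87 (SE 0.067, adjusted p = 9.1e-12) for siGRHL2a against siTP63b. Unlike CLDN4 and CGN, MYO5B was higher in siGRHL2a than in siSOX2b (log2FC 0.43, SE 0.07, adjusted p = 2.49e-05). Only 3.42% of its counted span is exonic, and an overlapping gene on the same strand held 65.9% as many counts. RAB25, the small GTPase that works with MYO5B in recycling, was higher in siTP63b than in siSOX2b (17.6 against 12.4 CPM, log2FC 0.50, SE 0.11, adjusted p = 0.000452) and passed no other test.

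Known targets of the factors were also read across roles, by the adjusted p alone. Of 6 genes known as grainyhead targets (CDH1, CLDN3, CLDN4, RAB25, SPINT1 and EPCAM), 2 were lower in siGRHL2a against siTP63b (CLDN4 and SPINT1, 33.3% against 13.6% of all genes). Against siSOX2b, 1 was lower and 1 higher (CLDN4 and CDH1, 16.7% each against 11.8% and 12.7%), shares near the background, and the pass of CDH1 was lost under most alternatives. In siKLF5b 3 were lower (CDH1, CLDN4 and SPINT1, 50% against 12.9%), and in siTP63b against siSOX2b 2 were higher (CLDN4 and RAB25, 33.3% against 16.4%). Of 4 genes known as p63 targets (CLDN1, CDH3, NECTIN1 and NECTIN4), 1 was lower and 1 higher in siTP63b than in siSOX2b (CDH3 and CLDN1, 25% each against 15.4% and 16.4%). In siKLF5b 3 of the 4 were lower (CLDN1, CDH3 and NECTIN4, 75% against 12.9%). In siGRHL2a, CLDN1 and NECTIN4 were lower and CDH3 and NECTIN1 higher than in siTP63b (50% each against 13.6% and 13.4%), and 0 of the 4 passed against siSOX2b, where their adjusted p was from 0.117 to 0.731. With so few genes these shares are descriptions only.

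Other junction and polarity genes gave a comparison outside the 39. Of 18 other tight junction genes tested, 0 were called in siKLF5b at both thresholds, where 1.37% of all genes were called lower and 1.89% higher. By the adjusted p alone, 2 were lower (11.1% against 12.9% of all genes) and 1 higher (5.56% against 10.3%). In siGRHL2a against siTP63b, the adhesion receptor CXADR was called lower (log2FC -0.82, SE 0.074, adjusted p = 3.44e-10) and the claudin gene CLDN14 higher (0.76, adjusted p = 0.00254). Against siSOX2b, CLDN14 (1.07) and JAM3 (0.92) were called higher and 0 lower, with 2 lower at the adjusted p alone (11.1% against 11.8%). In siTP63b against siSOX2b, ILDR2 was called higher (1.14).

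Of 14 other adherens junction genes, 7 were lower (50% against 12.9%) and 1 higher (7.14% against 10.3%) in siKLF5b by the adjusted p alone. CTNNA3 was called lower in siGRHL2a against siTP63b (-1.69) and higher in siTP63b against siSOX2b (1.07), at means of 0.375 to 1.23 CPM. Of 18 other polarity genes, PARD3B was called higher in siGRHL2a and in siTP63b than in siSOX2b (0.82 and 1.24), and 8 of the 18 (44.4% against 13.6% of all genes) were lower by the adjusted p alone in siGRHL2a against siTP63b.

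Markers of other cell types and of the epithelial state moved in these contrasts as well, and their part in the junction results was not tested. KRT17, KRT6A and KRT14 of the 10 squamous markers were called lower in siKLF5b (log2FC -1.47, -1.29 and -1.26, 30% against 1.37% of all genes). By the adjusted p alone, 7 were lower there (70% against 12.9%) and 2, SOX2 and DSG3, higher (20% against 10.3%). KRT14, KRT17, DSC3 and TP63 itself were called higher in siGRHL2a than in siTP63b (1.53, 1.38, 1.05 and 1.19, 40% against 3.21%). There, 8 were higher by the adjusted p alone (80% against 13.4%) and 1, SOX2, lower (log2FC -0.55, 10% against 13.6%). In siTP63b against siSOX2b, 3 of the 10 were called lower (KRT14, KRT17 and TP63, 30% against 2.82%) and 1 higher (SOX2, 10% against 3.88%). By the adjusted p alone, 6 were lower there (60% against 15.4%) and 1 higher (10% against 16.4%). In siGRHL2a against siSOX2b, 1 was called higher (SOX2, 10% against 2.27%). By the adjusted p alone, 8 were higher in that contrast (80% against 12.7%) and 1 lower (10% against 11.8%). Of 11 mesenchymal markers, 9 were tested and 1 was called, ZEB1, higher in siGRHL2a than in siTP63b (3.47 against 1.86 CPM, log2FC 0.90, SE 0.23, adjusted p = 0.00279). It made up 11.1% of the 9, against 3.21% of all genes called higher. By the adjusted p alone, 4 of the 9 were higher in that contrast (44.4% against 13.4%) and 1 lower (11.1% against 13.6%). The summed mesenchymal level was 292 to 301 CPM in siNC1, 272 to 292 in siKLF5b, 288 to 339 in siTP63b, 428 to 436 in siSOX2b and 415 to 450 in siGRHL2a, and ZEB2 was at 0 in the last 2 groups. This sum was carried mostly by SNAI2, CDH2 and SPARC. SNAI2 was at 135.5, 148.2 and 176.8 CPM in siTP63b and at 266.1, 259.5 and 231.7 CPM in siGRHL2a. CDH2 was at 60.99, 68.66 and 73.72 CPM in siTP63b and at 97.15, 95.05 and 92.68 CPM in siGRHL2a. Of the 6 alveolar and glandular markers, whose sum stayed between 2.97 and 11.5 CPM, 2 were tested. NKX2-1 was called higher in siGRHL2a than in siTP63b (0.85, 50% of the 2 against 3.21% of all genes). SFTPC and SFTPA1 were at 0 in all 3 groups of the second set. Of 8 endothelial and immune markers, with a sum of 32.3 to 51.4 CPM carried mostly by CD68, 3 were tested. VWF was called higher and PTPRC lower in siGRHL2a than in siSOX2b (0.86 and -1.50). Each was 33.3% of the 3, against 2.27% of all genes called higher and 1.05% called lower. PTPRC was scarce, with 16, 18 and 2 counts in siGRHL2a and 36, 40 and 16 in siSOX2b. CD3E and CD79A were at 0 throughout the second set.

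Of 11 grainyhead and epithelial-mesenchymal regulators, 10 were tested and ZEB1 was the one called (10% in siGRHL2a minus siTP63b, against 3.21% of all genes called higher). By the adjusted p alone, 3 were lower in that contrast (30% against 13.6%) and 2 higher (20% against 13.4%). GRHL3 was lower in siKLF5b by the adjusted p alone (25.5 against 34.0 CPM, log2FC -0.42, SE 0.077, adjusted p = 0.000119). In the second set GRHL3 stood at means of 16.6 to 17.1 CPM, and GRHL1 at 4.49 to 5.54 CPM, without passing the test in any contrast.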

How the data were processed

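Poly(A) RNA from HCC95 cells was reverse-transcribed with random hexamers and sequenced in 15 libraries. Per the submitters' processing notes and methods, the authors aligned reads to hg38 with HISAT2 2.2.1, kept unique alignments and deposited raw gene counts from featureCounts 2.0.1 with Gencode release 40. The counted length of all 61544 genes was the whole span, so intronic reads count, and strand use is not given in the sources used here. Counts were fitted in edgeR 4.0.16 (R 4.3.3) by quasi-likelihood, with a mean per group, TMM factors and filterByExpr, and Benjamini-Hochberg adjusted p-values cover 25108 genes. With 3 against 3 libraries an exact permutation test cannot go below 0.1. The steps were tested on simulated counts. Exons came from Gencode release 44 and stretches before starts from RefSeq. Alternatives were other scalings and filters, DESeq2 1.42.0, other thresholds, the replicate number as a block, libraries of one set alone and each library left out.

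Genes named with every library's value were those called in any contrast and CLDN1, CLDN4, OCLN, TJP1, CDH1, CTNNB1, EPCAM and GRHL2; of each further list, up to 3 genes with the smallest adjusted p in a contrast were given. The members and lists were chosen with earlier results of these data known. Some genes of the further lists are not reported here.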

Additional observations from a re-analysis of the deposited data

How the results depend on the processing

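Of 775 recalculations of 60 results for single genes, 762 kept their side of both thresholds together, 10 lost a call, 3 gained one and 0 reversed a call. Most of the 60 results were not called, so that 762 mainly counts uncalled results that stayed so. Most losses were of NECTIN4, in 6 of 13 recalculations for siKLF5b minus siNC1 and 3 of 13 for siGRHL2a minus siTP63b. Passes of the adjusted p alone are not counted here, and some of them were lost, such as CDH1 in siGRHL2a against siSOX2b. Without a fold threshold the counts of junction genes were 16 lower and 1 higher in siKLF5b minus siNC1, 21 and 6 in siGRHL2a minus siTP63b, 7 and 6 in siGRHL2a minus siSOX2b, and 4 and 16 in siTP63b minus siSOX2b. With an absolute log2FC above 1 they were 1 lower in the first, 3 lower in the second, and 0 and 0 in the third contrast. Leaving out single libraries, the third contrast gave 1 to 2 lower and 0 to 1 higher. The median log2FC of the junction genes in siGRHL2a minus siTP63b was -0.29 with RLE size factors, -0.30 without a filter, -0.26 with at least 10 counts in every library and -0.30 in DESeq2. With libraries left out, the medians were -0.25 to -0.14, -0.31 to -0.26, -0.075 to -0.051 and 0.23 to 0.26 in the 4 contrasts. GRHL2 in siGRHL2a minus siSOX2b was no longer past the threshold with upper-quartile scaling (log2FC -0.12, adjusted p = 0.0647), without a filter (-0.14, 0.105) and with libraries of one set alone (-0.14, 0.0858), and it ranged from -0.18 to -0.11 with libraries left out; the cause was not tested.
Replicate numbers did not pair the samples, since same-numbered libraries of a contrast correlated at -0.19 to 0.11 in their deviations, and with the replicate number as a block the counts of called junction genes were 4 lower and 0 higher, 7 and 0, 1 and 1, and 0 and 3. Over all genes, the fit to at least 10 counts in every library called 355 lower and 542 higher in siGRHL2a minus siTP63b, 154 and 360 in siGRHL2a minus siSOX2b and 470 and 620 in siTP63b minus siSOX2b, beside 547 and 807, 264 and 569, and 709 and 973 in the fits reported, with 19640 genes tested in place of 25108. The other scalings, filters, samples and tools stayed within 1.5 times the counts reported.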
